A study of Arabidopsis thaliana with 6 samples.

Results

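The introns described here are those narrower than 100 bases in a deposited table of read counts per constitutive intron of Arabidopsis thaliana. They were taken by width alone, and 32844 of the 65535 introns of the table met the rule (50.1%), in 9058 loci. The table used here covers chromosomes 1 (16199 of these introns), 2 (9192) and 3 (7453, held in part), and introns of other chromosomes were not analysed from counts. Polyadenylated RNA of whole plants, labelled as a pool of tissues, had been sequenced from wild type (WT) and from the gemin2 mutant, written gemin2-1 in the header of the authors' own comparison, both in the Col ecotype and with 3 libraries each. All plants had been stratified in the cold and dark, grown on Murashige and Skoog medium at 22 °C in unbroken light, and harvested at 9 days of age. The kind of mutation is not given in the sources used here. The libraries are called A, B and C of each genotype, after the letters of the deposited columns. Genes were counted with 14049163 to 17217408 reads per library.

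An intron is cut from the transcript by the spliceosome, a machine of small nuclear ribonucleoproteins (snRNPs) in which U1 snRNA pairs with the start of the intron and U2 snRNA with the branch point near its end. The Sm proteins that form the core of these snRNPs are loaded on the snRNAs with the help of GEMIN2, a partner of SMN. Plant introns are mostly short and rich in U (T in the DNA), and the plant spliceosome depends on that richness to tell an intron from the exons around it. Retention of an intron, in which it stays in the mature polyadenylated RNA, is the most common form of alternative splicing in plants, and a retained intron often carries a stop codon in the reading frame.

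The introns had a median width of 86 bases, and 31536 of them (96.0%) were 70 to 99 wide. The TAIR10.1 sequence of RefSeq, read at the TAIR10 coordinates of the table, starts with GT and ends with AG in 32352 of the 32789 with a known strand (98.7%). GC to AG ends were found in 342 and AT to AC ends in 17. They lie between coding exons in 30548 cases (93.0%), and in 25604 of these (83.8%) the reading frame of the upstream exon meets a stop codon within the intron. RefSeq lists 32369 of them as an intron of an annotated transcript, so the label of constitutive holds for most. It does not hold for all: 1665 are exonic in another annotated isoform, 1312 abut another counted bin and 599 overlap another gene.

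The sequences of 9 introns that were higher in gemin2 relative to their genes, and of 5 that were lower, are shown because they hold the ends and the base composition compared further on. They are the TAIR10.1 sequence from 5′ to 3′ on the strand of the gene, with the first 6 and the last 3 bases in capitals. The first 6 bases are the intron side of the 5′ splice site, read by U1 and U6 snRNA, and the last 3 are the 3′ splice site. Intron numbers follow the order of coordinates in the table, which for a gene on the minus strand is opposite to the order of transcription. The introns higher in gemin2 come first.
AT3G52990 I014 (chr3:19651787-19651871, plus strand): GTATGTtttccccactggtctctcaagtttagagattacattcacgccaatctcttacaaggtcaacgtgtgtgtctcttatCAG
TON1A I007 (chr3:20383440-20383534, plus strand): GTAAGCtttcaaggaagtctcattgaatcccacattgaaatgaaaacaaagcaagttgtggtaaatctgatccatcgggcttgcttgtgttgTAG
ATUBC24 I001 (chr2:14278019-14278103, minus strand): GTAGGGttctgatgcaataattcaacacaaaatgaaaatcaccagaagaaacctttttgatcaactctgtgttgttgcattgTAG
MORF9 I003 (chr1:3848672-3848765, plus strand): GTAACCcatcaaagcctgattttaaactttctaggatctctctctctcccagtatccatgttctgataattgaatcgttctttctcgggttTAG
AT1G03250 I001 (chr1:793732-793828, minus strand): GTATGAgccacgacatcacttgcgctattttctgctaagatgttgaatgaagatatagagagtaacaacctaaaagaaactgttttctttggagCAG
HSP60-3B I014 (chr3:8671913-8671991, plus strand): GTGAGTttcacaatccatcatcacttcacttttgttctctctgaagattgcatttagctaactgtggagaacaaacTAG
RAB8A I009 (chr3:16919573-16919656, plus strand): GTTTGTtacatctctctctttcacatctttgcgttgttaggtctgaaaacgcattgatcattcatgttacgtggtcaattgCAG
At-SR30 I011 (chr1:2945457-2945542, minus strand): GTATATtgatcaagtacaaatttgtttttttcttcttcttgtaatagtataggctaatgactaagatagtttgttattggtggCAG
CA1 I002 (chr3:195338-195405, minus strand): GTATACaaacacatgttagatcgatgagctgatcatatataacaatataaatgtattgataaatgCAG
The introns lower in gemin2 follow.
ATSPP2 I006 (chr3:19407954-19408044, plus strand): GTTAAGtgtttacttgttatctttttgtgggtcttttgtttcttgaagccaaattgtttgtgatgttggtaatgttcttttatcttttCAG
AT1G51430 I003 (chr1:19068613-19068710, plus strand): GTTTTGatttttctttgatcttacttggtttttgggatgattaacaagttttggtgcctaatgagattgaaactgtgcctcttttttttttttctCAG
PSAO I002 (chr1:2641565-2641660, minus strand): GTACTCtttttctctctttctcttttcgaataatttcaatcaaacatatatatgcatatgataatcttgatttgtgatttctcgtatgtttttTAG
GAPB I003 (chr1:16128084-16128152, plus strand): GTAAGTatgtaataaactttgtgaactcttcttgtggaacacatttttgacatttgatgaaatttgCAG
GOX1 I015 (chr3:4823438-4823525, plus strand): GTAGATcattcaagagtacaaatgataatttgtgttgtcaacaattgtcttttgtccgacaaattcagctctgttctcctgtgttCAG
All 14 start with GT and end with AG. GTAAGT, the plant consensus and the best match to U1, opens GAPB I003 among those shown, and it also opens AT1G47530 I005, a higher intron given with its reads later. AT1G51430 I003 carries a long run of T just before its end.

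Most of these introns had few reads or none, as introns do in polyadenylated RNA. No read was counted in any library for 12019 (36.6%), 19350 had 1 to 29 reads over the 6 libraries, and 1475 had 30 or more. After a filter on low counts, 1551 introns (4.72%) in 1134 loci were tested, with a median of 49 reads over the 6 libraries and a range of 20 to 6336. The filter needs 3 libraries with enough reads: 637 introns met it in both genotypes, 312 only through gemin2, 273 only through WT and 329 through libraries of both. An intron that entered through 1 genotype only was selected for its reads there. Counts below thus describe the introns tested and not all short introns. Of the 1551, 354 are exonic in an annotated isoform and 144 overlap another gene, whose reads cannot be told apart without strand. Each intron was tested against the count of its own gene in the same library, so that a change is a change relative to the gene (edgeR quasi-likelihood test on all 4938 tested introns of every width, Benjamini-Hochberg adjusted p under 0.05).

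Short introns were more often higher than lower in gemin2. Of the 1551, 146 introns (9.41%) in 133 loci were higher and 23 (1.48%) in 21 loci were lower by edgeR. Over introns of every width, short ones included, 5.93% were called higher, 3.46% lower and 9.40% in either direction. The introns of 100 bases or more gave 147 higher (4.34%) and 148 lower (4.37%) of 3387. The change was at least 1 on the log2 scale in 139 of the 146 higher introns and at least 2 in 82, and in 17 of the 23 lower ones it was at least 1 in size. The median change was 2.21 among the higher and -1.32 among the lower introns, and 0.07 among all short introns tested against -0.07 for the longer ones and -0.03 for every width. At an unadjusted p under 0.05, 244 were higher and 96 lower. In 300 of the 1551 all 3 gemin2 ratios of intron to gene reads lay above all 3 of WT, and in 145 they lay below, where introns of every width gave 14.0% above and 14.8% below. DESeq2 called 62 higher and 1 lower, and with no gene offset 142 were higher and 73 lower. Of the 146 higher introns 39 had at most 3 WT reads, and how many entered through gemin2 only was not counted. A filter of 30 reads over all libraries, blind to genotype and chosen after seeing the data, gave 113 higher and 21 lower of 1469. Under that filter the longer introns gave 128 higher and 130 lower of 3238. With any 1 library left out both counts fell. The lower count was 9, 15 and 18 without WT A, B and C, and 13, 16 and 13 without gemin2 A, B and C. The higher count was then 112 to 122.

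The density of reads on an intron is its reads per base as a percentage of the reads per base of its gene. It is not a measured share of retained transcripts, and it can pass 100%. PMR6 I001, which overlaps another gene, had a mean of 158% in gemin2. The 146 higher introns had a median density of 6.27% in WT and 33.9% in gemin2. By library, in the order A, B, C, the median was 7.21%, 4.93% and 5.68% for WT, and for gemin2 35.5%, 33.8% and 32.8%. The 23 lower introns went from 18.8% to 7.66%, and the 1382 that did not pass had 21.3% in WT and 22.6% in gemin2. Among the higher introns, 54 had a density of at least 10% in WT and 127 in gemin2, and 95 reached 25% in gemin2. These figures describe introns chosen by the same comparison and are no separate test.

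**Figure D1:**
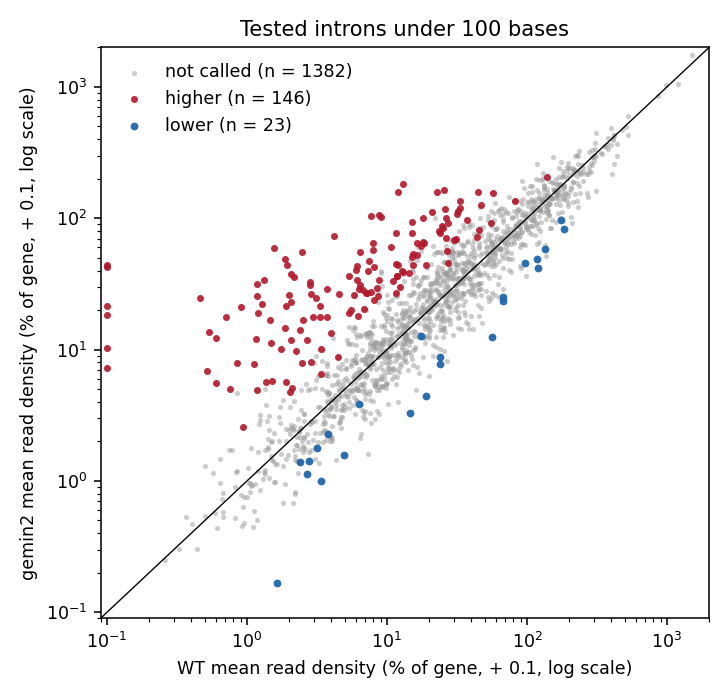
Intron read density in WT (x axis) and gemin2 (y axis), each the mean of 3 libraries as a percentage of the gene's reads per base with 0.1 added, on log axes, one point per tested intron under 100 bases. The higher introns lie mostly above the diagonal from low WT densities, with a median of 6.27% in WT and 33.9% in gemin2, and the lower ones below it.

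Most calls were also made without the gene count. Counted per intron, the genes of the 146 higher introns had fallen themselves in 70 cases, risen in 18 and not passed in 58. Over all 20762 tested genes 18.9% had fallen, 17.8% had risen and 36.7% had passed in either direction. Genes that hold a tested short intron differ from all genes, and their share fallen was not counted. The median log2 change of the gene was -0.13 for higher, -0.17 for lower and -0.10 for uncalled introns. With the gene offset left out, 121 of the 146 were still called higher and 144 had more reads in gemin2 for the library size, at a median change of 2.1. All 23 lower introns were also called lower without it. Their genes had fallen in 11 cases, risen in 1 and not passed in 11.

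Some short introns were at 0 reads in all WT libraries and had reads in each mutant library. The largest was AT3G52990 I014, in a gene of the pyruvate kinase family, the last step of glycolysis, which had 0 reads in every WT library while gemin2 A, B and C had 34, 41 and 36. Set against a floor of 3 reads over the WT group, its reads per gene read were at least 42.2-fold higher in gemin2 (edgeR adjusted p = 3.34e-06), where its density was 42.7 ± 4.42% (SD, n = 3). The frame of the exon before it runs through this intron without a stop, but its width of 85 bases is not a multiple of 3. Retention would thus shift the frame of the exon after it. TON1A I007 lies in a gene needed for the preprophase band that marks the plane of cell division. It had 0 reads in each WT library against 14, 18 and 16, at least 14.5-fold higher (edgeR adjusted p = 0.000239). ATUBC24 I001 lies in PHO2, the ubiquitin-conjugating enzyme that restrains phosphate uptake, and had 0 reads in WT against 18, 13 and 17, at least 13.1-fold higher (edgeR adjusted p = 0.000474). With 0 WT reads, these 3 introns entered the test through gemin2 only, where they are high. Their p-values are thus no separate support. That the lowest mutant library lay above every WT library follows from the 0 reads of WT. The genes themselves moved by -0.30, 0.02 and 0.18. In all, 6 called introns had no WT read.

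**Figure D2:**
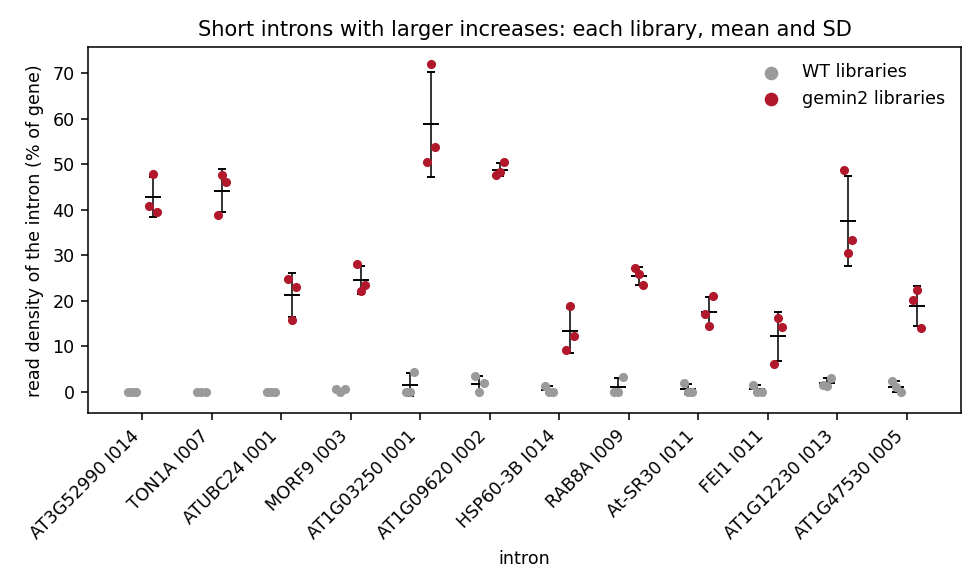
Read density of the intron as a percentage of that of its gene (y axis) for the introns with the larger increases (x axis), with a point per library, WT in grey and gemin2 in red, and bars for the mean and SD of 3 libraries. WT libraries lie at or near 0, and AT3G52990 I014 and TON1A I007 reach means of 42.7% and 44.2% in gemin2.

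Such introns were counted over all genes tested, whether or not the intron entered the test. Of 27887 short introns in tested genes, 18 had 0 WT reads and at least 15 gemin2 reads, and 0 had the reverse. With up to 3 reads in one genotype and at least 15 in the other, 119 were on the side of gemin2 and 16 on the side of WT. Among 28201 longer introns the counts were 1 against 2 at 0 reads, and 64 against 52 at up to 3 reads. These are counts of introns past fixed numbers of reads with no test. The gemin2 libraries held more gene reads in total than the WT libraries.

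A further group had a few WT reads. MORF9 I003, in a gene of a plastid RNA editing factor, had 1, 0 and 1 reads in the WT libraries against 57, 51 and 53, a density of 0.358 ± 0.312% against 24.5 ± 3.15% (SD, n = 3). RAB8A I009, in a gene of a small GTPase of vesicle traffic, had 0, 0 and 2 against 21, 22 and 19, a ratio of 27.2 relative to the gene (95% counting interval 7.21 to 229). HSP60-3B I014, in a gene of a mitochondrial chaperonin, had 1, 0 and 0 against 7, 16 and 10, a ratio of 35.02 (5.86 to 1425). Every mutant library of these introns lay above every WT library. AT1G03250 I001, annotated as an R3H domain protein and exonic in another isoform, had 0, 0 and 1 against 10, 16 and 13 (44.4, 7.51 to 1796). AT1G09620 I002, in the 5′ UTR of a gene annotated as a leucine-tRNA ligase, had 2, 0 and 1 against 30, 34 and 34 (29.7, 9.85 to 146). AT1G47530 I005, in a gene of the MATE efflux family of transporters, had 2, 1 and 0 against 19, 23 and 14 (17.2, 5.59 to 85.9). FEI1 I011, in a gene of a receptor kinase of cell wall synthesis, had 1, 0 and 0 against 5, 16 and 13. AT1G12230 I013, annotated as an aldolase superfamily protein, had 1, 1 and 2 against 32, 22 and 23, a log2 change of 4.16 (SE 0.452). All 8 also entered the test through gemin2 only, where they are high, so their calls and lack of overlap are no separate support. The intervals cover counting error only. These 8 introns were called with each library left out in turn, except that FEI1 I011 fell under the count filter and was not tested without gemin2 B or gemin2 C. The size rested on the library that held the WT reads: without it the fitted log2 change went from 5.0 to 6.82 for AT1G03250 I001, from 4.73 to 5.63 for AT1G09620 I002 (4.1 without WT B), from 4.67 to 6.54 for HSP60-3B I014, from 4.54 to 7.34 for RAB8A I009 (3.93 without WT B), from 4.33 to 6.39 for FEI1 I011 and from 3.95 to 4.85 for AT1G47530 I005.

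The higher introns with the most reads follow. CP5 I001 had 15, 22 and 15 WT reads against 170, 254 and 223, in a gene annotated as a lipid transport protein, and its density went from 3.01 ± 0.187% to 24.4 ± 2.68% (SD, n = 3). CA1 I002, in the gene of a carbonic anhydrase, had 701, 726 and 651 reads against 750, 823 and 852. Its reads hardly differed, and its log2 change of 0.74 (SE 0.055, edgeR adjusted p = 1.26e-06) came with a fall of the gene of 0.64, so that the density went from 27.4 ± 0.756% to 45.7 ± 2.0%. The call was lost with DESeq2 (adjusted p = 0.311), and with no gene offset CA1 I002 was at 0.10 and not called. ATDI19 I001, in the 3′ UTR of a drought-induced gene, had 113, 118 and 97 reads against 239, 306 and 275, with a density of 26.1 ± 1.92% against 70.5 ± 2.83%. BGLU23 I002, in the gene of a root beta-glucosidase of the ER body, had 19, 23 and 14 reads against 316, 334 and 23. Here gemin2 C stood with WT, and this was the 1 of the 146 higher introns whose genotypes overlapped. Its log2 change of 3.38 did not pass with a robust fit. AT1G58602 I006, with 73, 89 and 64 reads against 136, 127 and 123, is in a resistance gene with near copies and lost its call without WT A, without gemin2 A and with DESeq2. A near copy elsewhere in the genome (at least 90% identity) was found for 9 of the 169 called introns, all higher, among them 5 copies of 1 intron in the LpxC genes, and these are uncertain.

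Fewer introns were lower. ATSPP2 I006, in a gene of sucrose phosphate phosphatase, the last step of sucrose synthesis, had 39, 32 and 30 WT reads against 8, 8 and 8. Its density fell from 67.5 ± 11.6% to 25.2 ± 2.99% (SD, n = 3), a log2 change of -1.42 (SE 0.269, edgeR adjusted p = 0.00417). The gene fell by 0.77, and without the gene offset the change was -2.18. GOX1 I015, in a gene of glycolate oxidase, a peroxisomal enzyme of photorespiration, had 249, 83 and 226 reads against 17, 55 and 35. The groups did not overlap but WT B lay near the mutant libraries, and the change of -2.19 (SE 0.418) did not pass with a robust fit. GOX2 I012, in the neighbouring glycolate oxidase gene, had 55, 54 and 46 against 27, 30 and 32 (a change of -0.71), and GGAT1 I005, in the gene of the aminotransferase that follows it in photorespiration, 216, 208 and 155 against 127, 128 and 128 (a change of -0.48). GAPB, a subunit of the glyceraldehyde-3-phosphate dehydrogenase of the Calvin cycle, had a pair of lower introns. GAPB I003 had 28, 57 and 44 reads against 3, 3 and 21 and a change of -1.86, or -3.40 without gemin2 C, the highest mutant library. GAPB I008 had 55, 57 and 32 against 8, 18 and 18, at -1.32. AT1G51430 I003, annotated as a cTAGE family protein, had 20, 9 and 8 against 2, 3 and 4. ATSPT1 I009, in a gene of sphingolipid synthesis, had 16, 20 and 10 against 7, 7 and 6. The other lower introns taken by the naming rule, in PAP3, AVP1, AT1G69450 and UGT78D1, changed by -2.0, -1.66, -1.47 and -1.42. In all 23 lower introns the genotypes did not overlap. Of the 15 named ones, GOX1 I015, ATSPP2 I006 and GAPB I008 kept their call with each library left out, 12 lost it without 1 or more, and 14 lost it with DESeq2.

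Among gene lists, those of the splicing machinery had few short introns that could be tested, and the members moved in different ways. Of the SR proteins, regulators that bind exons and recruit the spliceosome, 20 loci were matched, 11 hold a short intron, and 4 introns in 3 loci were tested. The 3 called ones entered the test through gemin2 only, where they are high, so their number says nothing about the list and they are given by their values. At-SR30 I011 had 1, 0 and 0 WT reads against 11, 11 and 14 (ratio 29.1, 95% counting interval 4.89 to 1179), and without WT A its fitted change went from 4.46 to 6.49. SR34 I001, in the 5′ UTR, had 0 reads in each WT library against 8, 7 and 8, at least 7.23-fold higher. At-SCL30 I007 had 2, 1 and 0 against 14, 10 and 13 (13.6, 4.3 to 68.8), with a fitted change of 3.60, or 4.50 without WT A. All mutant libraries lay above all WT libraries in these introns. On the list of Sm, LSm and snRNP proteins 24 loci were matched. The Sm symbols of the list matched no locus, so no Sm gene was examined. Matching went by symbol, and whether the loci matched as PRP3 and PRP4 are the snRNP factors was not checked. In the 24 loci 5 short introns were tested, with 0 higher and 1 lower by edgeR and a median of -0.05. At an unadjusted p under 0.05, 1 was higher and 2 were lower, and DESeq2 called 0. The lower one was PRP39 I007, in a homologue of a U1 snRNP protein of yeast, with 12, 13 and 10 reads against 6, 1 and 5. Its change of -1.63 (SE 0.462, edgeR adjusted p = 0.0403) lost its call without any of WT A, WT B, WT C, gemin2 B (-1.17) or gemin2 C.

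The other lists did not share a direction. In nuclear photosynthesis genes 37 short introns of 17 loci were tested, with 2 higher (CA1 I002 and PSAE-2 I002), 4 lower and a median of -0.09, where all tested short introns gave 9.41% higher, 1.48% lower and 0.07. At an unadjusted p under 0.05, 6 were higher and 6 lower, and DESeq2 called 1 higher and 0 lower. PSAE-2 I002, in a gene of photosystem I, had 10, 14 and 14 reads against 84 to 117 in gemin2, a change of 2.55 (SE 0.192, edgeR adjusted p = 1.41e-06). The lower ones, beside the GAPB pair, were in further photosystem I genes: PSAO I002 had 78, 87 and 81 reads against 33, 73 and 55, and PSAK I002 54, 67 and 82 against 44, 50 and 41. These photosystem I introns were at -0.82 and -0.74 and lost their calls with DESeq2 and without some libraries (PSAO I002 without WT A, WT C or gemin2 A, PSAK I002 without WT C, gemin2 A or gemin2 C). Of the circadian clock genes only 2 short introns were tested. The called one, which entered through gemin2 only, was I007 of PRR9, a repressor of the morning genes, which the table calls TL1, with 1, 0 and 1 reads against 14, 11 and 14 (ratio 13.6, 95% counting interval 3.52 to 116). It is exonic in an annotated isoform and did not pass with DESeq2. Its near copy, AT2G46670 I001, had the same count in every library, so the same reads may have been counted at both loci. The call can then not be assigned to PRR9, and both introns are among those counted as higher. Of cytosolic ribosomal protein genes 3 introns were tested, with a median of -0.95. By edgeR 0 of them were called, with 0 higher and 1 lower at an unadjusted p under 0.05, and DESeq2 called 0.

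The excess of higher over lower calls was found at each width under 100, and the shares moved with width. Below 70 bases 13 of 121 introns were higher and 1 lower, at 70 to 79 bases 44 and 4 of 369, at 80 to 89 bases 50 and 7 of 564, and at 90 to 99 bases 39 and 11 of 497. The median change in these classes was 0.23, 0.19, 0.03 and 0.01. From 100 to under 150 bases 40 were higher and 28 lower of 787, from 150 to under 400 bases 50 and 62 of 1451, and at 400 or more 57 and 58 of 1149, with medians of -0.01, -0.09 and -0.06. On either side of the limit, 17 were higher (7.69%) and 7 lower (3.17%) of 221 introns of 95 to 99 bases, and 10 (6.45%) and 4 (2.58%) of 155 introns in the next 5 widths. The classes had near median depths, 47 to 53 reads over the 6 libraries under 150 bases and 56 and 69 beyond. No test of the classes against each other was made.

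**Figure D3:**
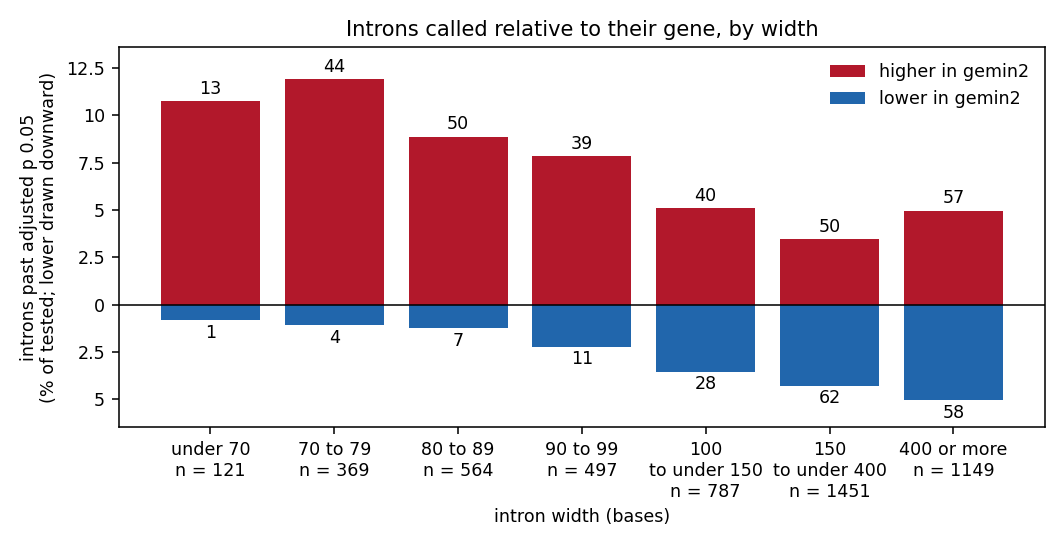
Introns called higher and lower in gemin2 by edgeR, as a percentage of the introns tested in each width class (bases). The share higher is 11.9% at 70 to 79 bases and 3.45% from 150 to under 400 bases, and the share lower goes from 0.826% below 70 bases to 5.05% at 400 bases or more.

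The small shift was also present in the library medians. After centring each intron's log2 ratio to its gene on its mean over the 6 libraries, the median over introns under 80 bases was -0.10 in WT A, -0.06 in WT B and -0.09 in WT C, while the gemin2 libraries had 0.18, 0.15 and 0.15. For those of 80 to 99 bases it was 0.05, -0.03 and 0.01 in WT and 0.08, 0.04 and 0.10 in gemin2, where gemin2 B overlapped WT A. In introns from 100 to under 400 bases the order was turned, with 0.12, 0.06 and 0.06 in WT and -0.01, 0.01 and 0.01 in gemin2. Summed over all short introns, the WT libraries had 0.743, 0.689 and 0.704 reads per 100 gene reads and the gemin2 libraries 0.740, 0.741 and 0.757, so WT A overlapped the mutant libraries. The shift over all short introns depended on the scaling, since the median was 0.07 with the gene offset and -0.05 without it.

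**Figure D4:**
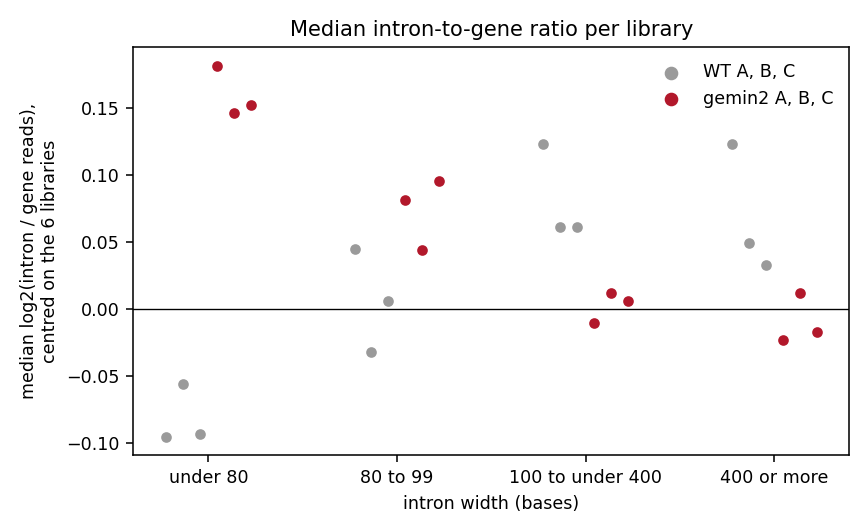
Median over tested introns of the log2 of intron reads over gene reads, centred per intron on the mean of the 6 libraries, for each library and width class. Below 80 bases the WT libraries lie at -0.10 to -0.06 and the gemin2 libraries at 0.15 to 0.18, and from 100 to under 400 bases the WT libraries lie higher.

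The higher introns were mostly the only short intron called higher in their genes. Of the 133 loci, 122 had 1 higher short intron and 11 had 2 or more, with 3 at most. The table holds 986 introns for these loci, a median of 7 per locus. With all higher short introns set aside, another 193 introns were tested in 83 of the loci. Of these, 8 were higher, 10 lower and 175 not called, with a median change of 0.12. A short intron could not count as higher in this set, so the 8 are longer introns. The low share of higher calls is thus partly fixed by how the set was formed, and no conclusion is drawn from it. In the 513 loci with both a short and a longer tested intron, the short ones gave 76 higher and 18 lower calls of 763, and the longer ones 35 and 36 of 728. Within a locus the median difference of short over longer introns was 0.09 on the log2 scale, and the short ones lay above in 283 of the 513. Introns of 1 locus share the gene count they are divided by.

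Base composition was not used by the rule. The median T content was 35.03% in higher introns, 39.1% in lower ones, 40% in those not called and 41.1% in all short introns with a strand. GC content was 35.8%, 31.9%, 33.7% and 32.6%. In tested introns with less than 30% T, 40 of 134 were higher (29.9%) and 1 lower, against 10 of 292 higher (3.42%) and 6 lower at 45% T or more. The classes between gave 32 of 234 (13.7%), 38 of 440 (8.64%) and 26 of 449 (5.79%). The median change fell along these classes, at 0.37, 0.22, 0.04, 0.04 and -0.05, and their median depth was 48 to 54.5 reads. The same order of the end classes held among introns under 80 bases (20 higher of 70 against 5 of 80) and of 80 to 99 bases (20 of 64 against 5 of 212). The median density in WT was 30.7% below 30% T and 13.5% at 45% or more, and in gemin2 71.2% and 13.4%. In WT the density followed no such order within 80 to 99 bases, where it was 15.9% below 30% T, 19.9% at 35 to under 40% and 10.8% at 45% or more, against 49.2% and 23.9% in the end classes under 80 bases. TON1A I007, AT1G03250 I001 and CA1 I002, shown above, have less than 30% T, and ATSPP2 I006 and AT1G51430 I003 more than 50%. Single introns also went the other way. The higher BGLU23 I002 and CP5 I001 have 47.2% and 41.7% T, and the lower PSAK I002 has 32.5%. The median of the lower introns, 39.1%, lay near the 40% of those not called. This is a description of the tested introns, with no test.

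**Figure D5:**
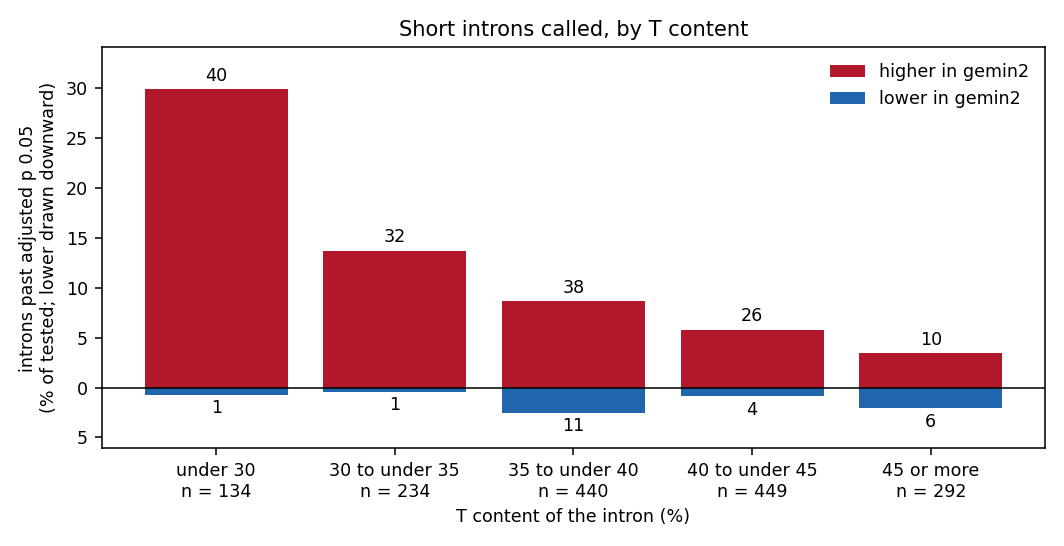
Share of tested introns under 100 bases called higher or lower in gemin2, by T content of the intron in percent. The share higher is 29.9% below 30% T and 3.42% at 45% T or more, and the share lower stays small in each class.

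The splice sites were read from the same sequences. G at position 5, counted from the first base of the intron and paired by U1, was present in 56.8% of higher, 30.4% of lower and 45.5% of uncalled introns, and in 49.4% of all short introns. GTAAGT opened 6.85%, 8.70% and 7.61% of the 3 groups and GTATGT 5.48%, 4.35% and 4.57%. The end was CAG in 67.1%, 73.9% and 62.1% and TAG in 25.3%, 17.4% and 26.9%. A CTNAN branch point motif, searched on the strand of the gene in the last 40 bases, was found in 72.6%, 43.5% and 55.6%, and in 62.5% of all short introns. CTAAC, a part of that motif, was found in 8.22%, 0% and 3.48%. With 23 lower introns these shares are coarse, and no test was made of them. Of the introns that do not start with GT and end with AG, 28 were tested, with 2 higher and 0 lower by edgeR (3 and 1 at an unadjusted p under 0.05, and 1 and 0 by DESeq2). A start of ATATCC or GTATCCTT, the mark of the minor spliceosome, was found in 39 short introns, of which 6 were tested and 0 called by edgeR, 0 at an unadjusted p under 0.05 and 0 by DESeq2.

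Position within the gene was compared as well. The last intron of its transcript made up 39.0% of the higher, 34.8% of the lower and 28.6% of the uncalled introns, against 18.5% of all short introns. The first made up 17.1%, 13.04%, 18.0% and 11.7%. A width that is a multiple of 3, which would keep the frame if the intron were retained, was found in 40.4%, 52.2% and 34.1%, and in 33.8% of all. A stop codon in frame was met in 83.5% of higher, 85.7% of lower and 83.4% of uncalled introns between coding exons, near the 83.8% of all.

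The authors' deposited table of their own comparison lists introns with a log fold change and a false discovery rate. On chromosomes 1 to 3 it lists 344 introns under 100 bases, 278 above 0 and 66 below (80.8% above), and 515 of 100 bases or more, 283 above and 232 below (55.0%). It also covers chromosomes 4 and 5, whose counts were not analysed here. There the authors' deposited table lists 190 introns under 100 bases, 149 above 0 and 41 below (78.4%), and 298 longer ones, 168 above and 130 below (56.4%). Of the introns called here, 131 of 146 higher and 14 of 23 lower ones are listed in it. These counts are of presence alone: direction was not compared, and the share listed among uncalled introns was not counted. The tables come from the same libraries and are not independent of each other.

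As a check of the labels, GEMIN2 (AT1G54380) had 239, 262 and 221 WT reads against 71, 77 and 74, or 16.04 ± 0.643 against 4.54 ± 0.0846 CPM, counts scaled by library size (SD, n = 3). The log2 fold change was -1.82 (SE 0.0968, edgeR adjusted p = 4.46e-09), and all mutant libraries lay below all WT libraries. Its own short introns, 98 and 90 bases wide, had 0 to 2 reads in any library and were not tested. Markers of leaf, root and dividing cells were present in both genotypes, as in whole plants, and did not move in 1 direction. Among leaf markers, from WT to gemin2, RBCS1A went from 13929 to 13507 CPM, CA1 from 3992 to 2570 and LHCB2.1 from 1635 to 2385. Among root markers BGLU23 went from 3359 to 3594, PHO1 from 80.04 to 94.8, SCR from 42.5 to 49.3 and RHD6 from 2.59 to 1.22. The division markers CYCB1;1, KN and CYCD3;1 went from 10.7 to 14.7, from 40.3 to 53.1 and from 44.9 to 58.4. The part of these levels in the intron results was not tested. In whole plants, a change in the share of cells that retain an intron and a change within cells cannot be told apart.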

How the data were processed

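RNA-seq libraries of WT and gemin2 plants (3 each) were grouped by genotype from the labels. The deposited tables give raw counts of reads for genes and introns, with no normalisation. Further deposited tables hold the authors' own comparison, as log2 fold changes with false discovery rates, which are adjusted p-values, per the file headers. The build was TAIR10 and the tools named are TopHat2 2.0.9, edgeR 3.4.2 and R 3.0.2, per the submitters' processing notes. How reads were counted, how multi-mapping reads were treated, and whether a gene's count holds its intron reads is not given in the sources used here. The library protocol in the labels names no step that marks the strand. No column of a sample was dropped (0 left out). The column letters A to C are tied to no replicate number by the labels. Whether libraries of the same genotype are from separate cultures is not in the labels, and p-values then describe only how these samples vary, which may be technical.

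Counts were analysed with edgeR 4.0.16 in R 4.3.3: TMM normalisation, quasi-likelihood F test, two-sided, Benjamini-Hochberg adjustment over all introns (or genes) and a threshold of 0.05. For introns the offset was the log count of the gene in that library. The gene had to pass filterByExpr and average 20 reads or more, and the intron had to pass with a minimum count of 5. For library medians 0.5 was added to both counts. Standard errors (SE) were taken as the change divided by the root of the F statistic. Counting intervals of ratios are exact at 95%, and floors use 3 reads over a group. Width, ends, T content and frame came from RefSeq TAIR10.1 at the deposited coordinates. The steps were checked on simulated counts. Alternatives were DESeq2 1.42.0, other filters, offsets and widths, a robust fit, and each library left out.

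Named introns are the 12 higher and 10 lower with the largest change among those called without overlap of genotypes and with at least 30 reads over the 6 libraries. To these come, with neither condition, the 5 called in each direction with the most reads and up to 4 called per gene list. The introns, lists and tests were chosen with earlier results of these data known.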

Additional observations from a re-analysis of the deposited data

How the results depend on the processing

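With a minimum count of 20 the introns under 100 bases gave 43 higher and 12 lower calls and a median change of 0.04, with no count filter the median was 0.01, and with no gene offset 73 were lower and the median was -0.05. DESeq2 gave 62 higher and 1 lower. Without introns that are exonic in an isoform, abut another bin or are no annotated intron, an alternative chosen after seeing the data, 14 were lower. Introns under 80 bases gave 57 higher, 5 lower and a median of 0.20, and those under 120 bases 38 lower. With 1 library left out the higher calls numbered 112 to 122, the lower 9 to 18, and the median was 0.02 to 0.13. The excess of higher calls was kept in each of these settings. In longer introns the direction varied with the setting. They gave 69 higher and 85 lower with a minimum count of 20, but 34 higher and 21 lower with DESeq2 and 113 and 87 without WT A. With the column letters as replicate block, 115 were higher and 20 lower. The deviations of libraries of the same letter had correlations of 0.00600, 0.00974 and -0.00845 for A, B and C. A and B matched their own letter best and C did not. With few reads per intron, such values cannot decide whether libraries of the same letter were handled together. Of 620 values of 36 named introns under the settings run, 549 kept direction and call, 71 lost the call and 0 reversed; 17 introns, all of them higher, kept the call in each setting that tested them, and some settings left out introns under their filter. GEMIN2 stayed within -1.84 to -1.79. The cause of these moves was not tested. Most introns had too few reads to be tested at this depth, so a change in them was not detectable.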
